A study of Mus musculus with 6 samples.

Results

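The matrix proteases and their inhibitors of the mouse proximal pulmonary artery (PA) were taken by gene symbol: matrix metalloproteinases (Mmp), ADAM proteases (Adam), secreted ADAMTS proteases (Adamts), ADAMTS-like proteins (Adamtsl) and tissue inhibitors of metalloproteinases (Timp). The rule found 85 of the 53647 genes in the count tables, namely 23 Mmp, 34 Adam, 19 Adamts, 5 Adamtsl and 4 Timp genes. Of these, 80 had at least 1 count in a cell, 32 had at least 1000, 23 had fewer than 100, and 5 (Adam1a, Adam25, Adam34l, Adam4 and Adam6a) had none.

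The arteries came from wild type C57BL/6J mice without a transgene or treatment, were digested with collagenase and elastase together with tissue around them, and were profiled as single cells with 10x 3' chemistry. Each library was from 1 mouse. The young group held a library of 3 months (young 1) and a library of a female of 3 months (young 2). The old group held libraries of 20 months (old 1), 24 months (old 2), 28 months from a female (old 3) and 27 months from a male (old 4). The study's remaining young mouse is not analysed here.

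Total counts of unique molecules (UMIs) per library ran from 6355125 to 50436562. Of the barcodes, 15311 passed as cells, from 926 to 4017 per library, with a median of 799 to 2161 UMIs in young 1, young 2, old 1 and old 2, and of 5422 and 8052 in old 3 and old 4. Cells were named from marker genes, and 733 cells stayed unnamed. For comparison, 9 types with 14139 cells in all were present widely enough. The 4 shallower libraries and the 2 deep ones largely filled different clusters of the same type, so that 89.1 to 100% of the fibroblasts of young 1, young 2, old 1 and old 2 lay in cluster 10 and 92.9 and 94.5% of those of old 3 and old 4 in cluster 1. Young 1, young 2 and old 2 also shared 130 to 212 cell barcodes per pair, against at most 4 for any other pair. The study describes its mouse of 20 months as a male, but old 1 held 2395 Xist UMIs beside 205 of Ddx3y, 15 of Uty, 2 of Eif2s3y and 2 of Kdm5d, where the library labelled as a male of 27 months held 46 of Xist and 5800, 2209, 1819 and 494 of the same Y-linked genes. For the members whose old and young libraries did not overlap in FBs and ECs, fits that take these libraries into account are given with the comparison of ages.

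Matrix metalloproteinases cut collagens, elastin, proteoglycans and other matrix proteins, and membrane-type members also activate their secreted relatives. ADAM proteases sit in the cell membrane and release the outer parts of receptors and growth factors, whereas ADAMTS proteases are secreted and trim procollagens and large proteoglycans. ADAMTS-like proteins lack a protease domain and bind microfibrils. TIMPs bind and block metalloproteinases, and TIMP3 is held in the matrix, where it also blocks several ADAM and ADAMTS enzymes.

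Across cell types, fibroblasts (FBs) carried the broadest set of these genes. The level of a gene in a type is given as CPM (its counts as a share of all UMIs, scaled to 1000000) of the summed cells of a library, which for 3' counts needs no correction for transcript length. Types were compared with edgeR on the summed counts, each against the mean of the other 8 on a log2 scale, with library as a block. The genes described here were kept out of the clustering, but the types were drawn from other genes of the same cells. A gene was tested if it had a count in more than 5% of the cells of some type in at least 3 libraries, which 38 members and 11859 genes in all did. A member that passed was therefore well expressed somewhere, and the counts below are descriptions beside the same counts over all genes.

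In FBs, 28 of the 38 tested members were higher than in the other types at an adjusted p under 0.05, where 19.0% of all tested genes were higher, and 4 were lower (10.5% of the members, beside 15.7% of all genes). The median log2 difference of the members was 3.14, against -0.16 for all genes. All 5 Adamtsl genes, 8 of 9 Adamts genes, 6 of 9 Mmp genes, 6 of 11 Adam genes and 3 of 4 Timp genes were higher. In smooth muscle cells (SMCs), 21 of 38 were higher, where 21.3% of all genes were, and these included all 9 tested Adamts genes. In endothelial cells (ECs), 14 were higher beside 19.0% of all genes, among them all 4 Timp genes. Mesothelial cells had 16 beside 22.2%, airway epithelial cells 12 beside 28.9% and perivascular macrophages (MΦs) 10 beside 20.7%. Other myeloid cells had 7 beside 14.9%, B cells 3 beside 24.7% and T and NK cells 2 beside 12.3%. B cells had 20 of 38 members lower, whereas 17.2% of all tested genes were lower there. Perivascular MΦs had more members lower than higher, with 14 lower beside 13.7% of all genes. T and NK cells had 14 lower beside 13.6%, airway epithelial cells 9 beside 12.5% and ECs 8 beside 11%. SMCs had 6 lower beside 18.6%, other myeloid cells 6 beside 7.73% and mesothelial cells 5 beside 12.3%.

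**Figure D1:**
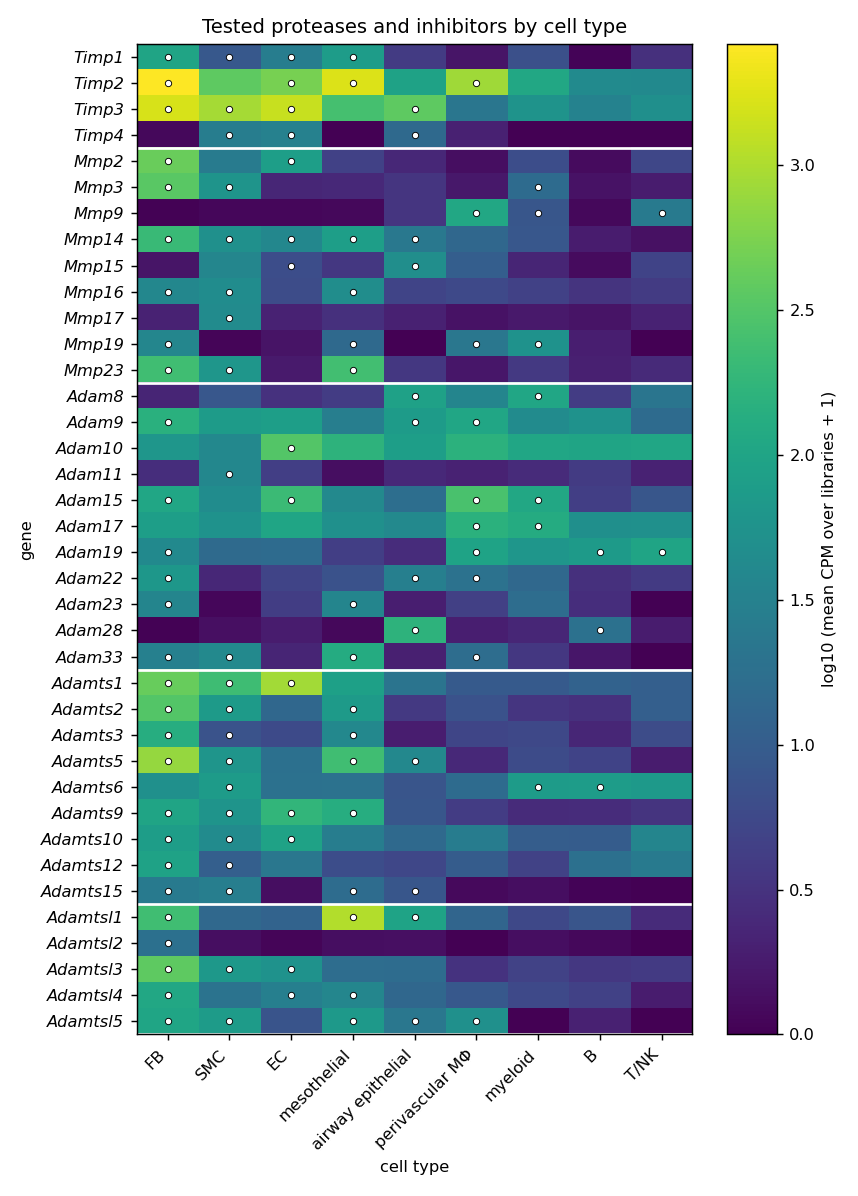
Mean level over libraries of the 38 tested proteases and inhibitors (rows, grouped by family) in 9 cell types (columns), coloured by log10 of mean CPM plus 1; white points mark genes higher in that type than in the mean of the other types (edgeR, adjusted p under 0.05). FBs hold 28 points, SMCs 21, ECs 14 and T and NK cells 2.

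Among the 57 members with at least 100 counts, 24 had their highest mean level in FBs. The matching share over all genes was not computed, so this count is a description only. The Timp transcripts summed to 4339 ± 535 CPM in FBs (SD, n = 6), to 2078 ± 387 in mesothelial cells (n = 5), to 1913 ± 340 in ECs (n = 6) and to 1306 ± 476 in SMCs (n = 6), and to 74.5 ± 47.1 in B cells (n = 5). The Mmp transcripts summed to 1310 ± 270 CPM in FBs, 407 ± 58 in mesothelial cells, 329 ± 88.9 in SMCs and 148 ± 40.7 in ECs. The Adamts transcripts summed to 2073 ± 335 CPM in FBs and 1238 ± 487 in ECs, whose ranges over libraries overlapped.

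The inhibitors were shared out between the cell types. Timp2, a soluble inhibitor that also takes part in activating MMP2, stood at 3388 and 2485 CPM in the FBs of young 1 and young 2 and at 2916, 2139, 2115 and 2659 CPM in those of old 1 to old 4. It was above every other type measured in each of the 6 libraries, with a log2 difference of 3.55 ± 0.19 (standard error; adjusted p = 4.45e-23, edgeR quasi-likelihood test with Benjamini-Hochberg adjustment). The next type was mesothelial cells at 1749 ± 313 CPM (SD, n = 5), whose highest library, at 1958 CPM, lay below the lowest FB library. Perivascular MΦs carried Timp2 at 249 to 1403 CPM over 5 libraries, and their Timp2 was also higher than the mean of the other types (1.73 ± 0.23, adjusted p = 5.63e-09 by edgeR).

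Timp3, the matrix-bound inhibitor, ran over FBs, ECs and SMCs. It stood at 1216, 1720, 1177, 1567, 1581 and 2487 CPM in the FBs of young 1, young 2 and old 1 to old 4, and at 1609, 1619, 1517, 1215, 1050 and 1004 CPM in the ECs. FBs and ECs overlapped, and SMCs, at 898 ± 406 CPM (SD, n = 6), overlapped both. Beside these types, Timp3 was called higher in airway epithelial cells (log2 difference 1.63 ± 0.31, adjusted p = 3.20e-05 by edgeR). Timp3 was lower in perivascular MΦs than in the other types (log2 difference -3.63 ± 0.54, adjusted p = 5.18e-07 by edgeR), where Timp2 was higher.

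Timp1, an inhibitor known as inducible by growth factors and cytokines, was far less abundant, at 97.3 ± 55 CPM in FBs (SD, n = 6) and 75.5 ± 52.7 CPM in mesothelial cells (n = 5). The 2 types overlapped, and both were higher than the mean of the others (4.20 ± 0.27 and 3.31 ± 0.31 on the log2 scale, adjusted p = 8.63e-20 and 1.77e-13 by edgeR). Timp1 was also called higher in ECs (2.05 ± 0.34, adjusted p = 1.77e-06) and SMCs (0.97 ± 0.38, adjusted p = 0.0347, both by edgeR).

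Timp4 was the inhibitor with the narrowest pattern. Its log2 difference was 5.76 ± 0.49 in ECs, 5.34 ± 0.55 in SMCs and 5.13 ± 0.60 in airway epithelial cells (adjusted p = 1.10e-12, 1.57e-10 and 2.96e-09 by edgeR), while the levels were low, with 30.6 ± 34.4, 27.1 ± 16.3 and 13.6 ± 6.9 CPM (SD, n = 6 each). In ECs, Timp4 stood at 17.7, 22.8, 6.63, 0, 94.1 and 42.4 CPM in young 1, young 2 and old 1 to old 4, of which the young values were 1 count each. In old 3 and old 4 most of these counts came from a small EC cluster, cluster 20, led by Fabp4, Aqp1, Cd36 and Gpihbp1, genes known from capillary endothelium. In old 3, 258 of the 264 Timp4 counts of ECs were in the 175 cells of cluster 20 (574 CPM, 60% of cells with a count), beside 6 counts in the 556 cells of cluster 7 (2.62 CPM, 1.08% of cells), although cluster 7 held 2292153 UMIs and cluster 20 449202. In old 4 the levels were 453 and 4.24 CPM. Only 1 or 2 cells of cluster 20 were found in each of the other 4 libraries.

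Adamts9, a secreted protease of large proteoglycans, was also high in cluster 20, but not only there. In the 102 lymphatic ECs, a type counted apart from these ECs, Adamts9 stood at 793 CPM with a count in 63.7% of cells. Within ECs it stood at 1320 and 593 CPM in cluster 20 of old 3 and old 4 and at 22.2 and 13.8 CPM in their cluster 7. In cluster 4 of young 1, young 2, old 1 and old 2 it stood at 44.8 to 264 CPM. That cluster held 95.2 to 99.3% of the ECs of those libraries. These values describe clusters formed from the same cells and were not tested.

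**Figure D2:**
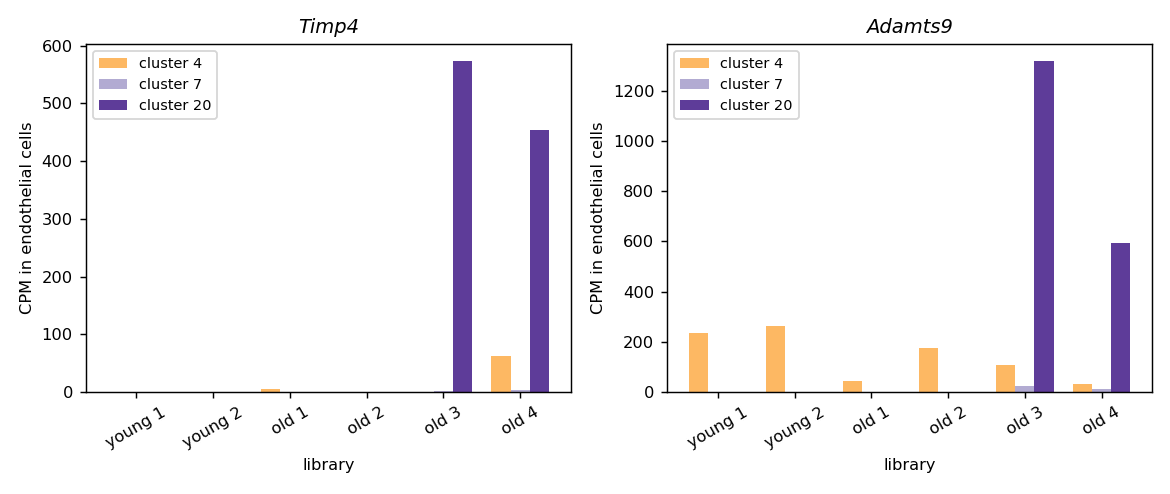
Timp4 (left) and Adamts9 (right) in CPM in the ECs of each library, by EC cluster; bars are shown for clusters with at least 10 cells in a library. Cluster 20, present in old 3 and old 4, stands at 574 and 453 CPM for Timp4 and at 1320 and 593 CPM for Adamts9, above cluster 7 of the same libraries.

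The gelatinases, named for cutting denatured collagen, were expressed by different cells. Mmp2 was highest in FBs, at 583 and 669 CPM in the young and 330, 315, 345 and 376 CPM in the old libraries, with a log2 difference of 6.58 ± 0.20 against the other types (adjusted p = 2.08e-34 by edgeR), and it was also higher in ECs (3.52 ± 0.26, adjusted p = 2.11e-17 by edgeR). Mmp9 had 2 counts in all FBs and stood at 91.5, 70.5, 18.4, 150 and 222 CPM in the perivascular MΦs of young 1 and old 1 to old 4 (6.90 ± 0.30, adjusted p = 1.82e-27 by edgeR). Young 2 had 8 such cells and was left out. Mmp9 was also higher in T and NK cells (3.86 ± 0.53, adjusted p = 2.91e-08 by edgeR), from 1, 1, 0, 19 and 4 counts in young 1 and old 1 to old 4, and in other myeloid cells (2.26 ± 0.79, adjusted p = 0.0315 by edgeR), from 7 counts. The myeloid call turned to a log2 difference of -0.08 without old 2. The highest level of all was in neutrophils, which were too few for the comparison: in the 72 cells of neutrophil cluster M9 in old 3, Mmp9 stood at 1166 CPM with a count in 88.9% of cells. The neutrophils of old 3 also carried 173 counts of the collagenase gene Mmp8 (632 CPM) and 90 of Adam8 (329 CPM).

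Mmp3, the gene of stromelysin 1, which cuts proteoglycans and fibronectin and activates other MMPs, had a log2 difference of 6.66 ± 0.26 in FBs (adjusted p = 2.19e-28 by edgeR), within the standard error of that of Mmp2, and this value pools young and old FBs, whose Mmp3 levels lay apart. Mmp14, the membrane-type MMP that activates MMP2, was higher in FBs (3.81 ± 0.24, adjusted p = 3.95e-20 by edgeR), at 164 to 240 CPM over 6 libraries, and highest there in every library, with mesothelial cells next at 63.9 to 99.4 CPM. Mmp23 did not separate these types, at 231 ± 48.5 CPM in FBs (SD, n = 6) and 243 ± 45.4 CPM in mesothelial cells (n = 5). Mmp17, a membrane-type MMP held by a lipid anchor, was higher in SMCs (4.58 ± 0.33, adjusted p = 2.77e-17 by edgeR) and in none of the other 8 types, at 133, 0, 43.1, 0, 28.5 and 56 CPM in young 1, young 2 and old 1 to old 4, of which the value of young 1 was 3 counts. Mmp19 was higher in myeloid cells (4.98 ± 0.45), FBs (4.38 ± 0.36), perivascular MΦs (3.47 ± 0.42) and mesothelial cells (2.59 ± 0.49), with adjusted p of 8.56e-13, 1.13e-14, 2.17e-09 and 2.33e-05 by edgeR. Mmp15, another membrane-type MMP, had its highest mean in airway epithelial cells at 47.7 ± 19.8 CPM (SD, n = 6; 4.65 ± 0.38, adjusted p = 8.10e-15 by edgeR). These cells were highest in 4 of 6 libraries, with SMCs next at 35.6 ± 39.8 CPM (SD, n = 6). Mmp15 was also called higher in ECs (1.57 ± 0.49, adjusted p = 0.0117 by edgeR).

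Mmp12 and Mmp13, the genes of macrophage elastase and collagenase 3, were too rare to be tested, with 447 and 156 counts in all cells. Both were high in a group of 33 cells left unnamed, cluster M11, led by Ms4a7, C1qb, C1qa and Ctss. Mmp12 stood there at 1221 CPM in 22 cells of old 3 (173 counts) and at 945 CPM in 10 cells of old 4 (54 counts), and Mmp13 at 155 and 1313 CPM (22 and 75 counts). In old 3, 86.4% of these cells had an Mmp12 count. In the perivascular MΦs of the same libraries, Mmp12 stood at 7.88 and 16.4 CPM and Mmp13 at 1.24 and 6.26 CPM. The perivascular MΦs of young 1, old 1 and old 2 had 86.7, 279 and 36.8 CPM of Mmp12, and the old libraries thus ran from 7.88 to 279 CPM, on both sides of the young one.

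Of the ADAM sheddases, Adam10, which cuts Notch receptors and cadherins, was highest in ECs in all 6 libraries, at 407 and 296 CPM in the young and 181, 341, 341 and 357 CPM in the old ones (1.5 ± 0.19, adjusted p = 1.46e-09 by edgeR). It was lower than in the other types in FBs (-0.80 ± 0.24, adjusted p = 0.0057) and SMCs (-1.5 ± 0.28, adjusted p = 9.21e-06, both by edgeR). Adam17, which releases tumour necrosis factor and EGF receptor ligands, was higher in perivascular MΦs (1.32 ± 0.19, adjusted p = 5.49e-08) and other myeloid cells (0.87 ± 0.25, adjusted p = 0.00692, both by edgeR), and its range of 109 to 212 CPM in the former overlapped that of ECs, 62.7 to 137 CPM. Adam15 was highest in perivascular MΦs at 269 ± 129 CPM (SD, n = 5) with ECs next at 213 ± 62.5 (n = 6), which overlapped.

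Adam28 stood at 182, 199, 104, 201, 151 and 142 CPM in the airway epithelial cells of young 1, young 2 and old 1 to old 4 (8.25 ± 0.41, adjusted p = 2.31e-21 by edgeR). It was also called higher in B cells (4.51 ± 0.53, adjusted p = 2.29e-09 by edgeR), but 163 of their 168 counts were in old 3, and without old 3 the log2 difference was 1.38 with an adjusted p of 0.147. Adam11, an ADAM without protease activity, was higher in SMCs (4.86 ± 0.39, adjusted p = 5.12e-15 by edgeR) at 37.6 ± 18.8 CPM (SD, n = 6). Adam33 was highest in mesothelial cells, at 124 ± 41 CPM (SD, n = 5; 4.97 ± 0.30, adjusted p = 2.01e-20 by edgeR). Adam8 was higher in myeloid cells (4.03 ± 0.60, adjusted p = 1.49e-06 by edgeR), from 173, 0, 232 and 13.8 CPM in young 1, young 2, old 2 and old 3, and in airway epithelial cells (4.43 ± 0.41, adjusted p = 7.03e-12 by edgeR), at 29.2 to 164 CPM, and these types overlapped. Adam19 was higher in perivascular MΦs (2.49 ± 0.35, adjusted p = 1.10e-07), T and NK cells (2.28 ± 0.42, adjusted p = 4.00e-05), FBs (1.24 ± 0.38, adjusted p = 0.00823) and B cells (1.57 ± 0.41, adjusted p = 0.00177, all by edgeR), and the B cell call was lost without young 1 (0.95, adjusted p = 0.079).

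The 3 Adamts genes called higher in ECs (Adamts1, Adamts9 and Adamts10) were called higher in FBs and SMCs as well. Adamts5, a protease of aggrecan and versican, was highest in FBs in all 6 libraries, at 819, 669, 522, 779, 985 and 795 CPM in young 1, young 2 and old 1 to old 4 (5.91 ± 0.23, adjusted p = 1.90e-29 by edgeR). Adamts2, a procollagen N-propeptidase, was likewise highest there in every library, at 318 ± 87.1 CPM (SD, n = 6; 5.07 ± 0.24, adjusted p = 4.06e-25 by edgeR). Adamts1 was highest in ECs in 5 of 6 libraries, at 1185 and 935 CPM in the young and 776, 1527, 398 and 376 CPM in the old ones (4.25 ± 0.36, adjusted p = 1.03e-12 by edgeR), with the deep libraries old 3 and old 4 lowest. Adamts15 was higher in SMCs (4.87 ± 0.33, adjusted p = 2.63e-18 by edgeR), FBs (4.14 ± 0.35), mesothelial cells (2.79 ± 0.46) and airway epithelial cells (2.23 ± 0.49). Adamts6 was higher in B cells (1.67 ± 0.31, adjusted p = 1.89e-05 by edgeR), SMCs and myeloid cells. Of the ADAMTS-like genes, Adamtsl1 stood at 911, 547, 1697, 1011 and 1173 CPM in the mesothelial cells of young 1 and old 1 to old 4 (5.97 ± 0.24, adjusted p = 7.25e-28 by edgeR), above every other type in these 5 libraries. Adamtsl5 was higher in FBs (4.15 ± 0.30), SMCs (3.64 ± 0.34), mesothelial cells (3.26 ± 0.35), perivascular MΦs (2.90 ± 0.37) and airway epithelial cells (2.12 ± 0.42). The adjusted p were 7.99e-17, 3.70e-13, 3.01e-11, 5.11e-09 and 3.42e-05 by edgeR. Its highest mean level was in FBs, at 100 ± 33.9 CPM (SD, n = 6). In MΦ cluster M2, its 22 counts were in 8 of 220 cells.

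Other genes of matrix turnover were counted beside the members. In FBs, 12 of 17 tested other matrix proteases, 9 of 12 genes listed as other inhibitors and 14 of 15 matrix substrates were higher, beside 19.0% of all genes. Among them were Htra3 (log2 difference 6.62 ± 0.21), the procollagen enhancer Pcolce2 (7.09 ± 0.23) and Bmp1, a procollagen C-propeptidase (4.82 ± 0.20). The inhibitor list thus also held genes that do not inhibit proteases, such as Pcolce and Pcolce2. In SMCs, 6, 9 and 10 genes of the same lists were higher, beside 21.3% of all genes. ECs had 5, 5 and 10 beside 19.0%, and mesothelial cells 9, 6 and 9 beside 22.2%. Of 7 partners of ADAM10 and ADAM17 tested, 2 were higher in FBs and 3 lower, whereas 5 were higher in ECs and 4 in perivascular MΦs. The shares over all genes were 19.0% higher and 15.7% lower in FBs, 19.0% higher in ECs and 20.7% higher in perivascular MΦs. Col1a1, Col1a2, Col3a1 and Dcn of the substrates and Serping1 of the inhibitors were among the genes that named the FBs, so that the FB counts are no independent evidence.

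Old and young libraries were then compared within FBs, SMCs, ECs and other myeloid cells, to ask how the proteolytic balance of the artery wall differed with age. Perivascular MΦs had 8 cells in young 2, under the minimum of 10, and were left untested. A gene was tested in a type if it had a count in more than 5% of its cells in at least 3 libraries. In FBs, SMCs and ECs the old libraries could meet this alone, and the young libraries could not. The filter thus favoured genes higher in old. Several members with few or no young counts entered through the old libraries alone. Among them were Mmp3, Adamts15, Adamtsl2, Adamts12, Adam10 and Adam19 in FBs. In SMCs they included Mmp3, Adamts15, Adamts12, Timp1, Adamts5, Mmp14 and Mmp23. The calls and p-values of such members are therefore descriptions. In FBs, 30 members were tested and 1, Mmp3, passed an adjusted p of 0.05, beside 3 of 6782 genes in all (0.0442%). No member passed in SMCs (26 tested, beside 0.112% of 7169 genes), in ECs (12 tested, beside 0% of 5870 genes) or in myeloid cells (6 tested, beside 0% of 3127 genes). At an unadjusted p under 0.05, edgeR gave 4 members in FBs (Mmp3, Adamts12, Adamts15 and Adamtsl2) and 2 in SMCs (Mmp3 and Adamts15). It gave 1 in ECs (Mmp2) and 0 in myeloid cells. The counts of all genes beside these were 422, 414, 351 and 66. With DESeq2, 0 members passed in any of the 4 types, beside 2, 0, 1 and 0 of all genes. Without old 3 and old 4, an alternative chosen after seeing the data, 17 members were tested in FBs and 0 passed, and Mmp3 was not among those tested. The median log2 fold change of the members was 0.06 in FBs, 0.43 in SMCs, -0.36 in ECs and -0.31 in myeloid cells, against 0.19, 0.50, 0.18 and 0.11 for all tested genes. None of the other matrix proteases, other inhibitors, substrates or sheddase partners passed in any of these types.

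Mmp3 was the member that differed most. It had 1 count in the FBs of young 1 (12.4 CPM) and 0 counts among the 20929 UMIs of young 2, which allows a level of up to 143 CPM. It had 125, 80, 4740 and 1384 counts in old 1 to old 4, or 325, 394, 896 and 476 CPM. Every old library was above both young ones. The log2 fold change was 5.72 ± 0.90 (adjusted p = 0.0192 by edgeR), and the ratio of pooled CPM was 73.1, with a 95% counting interval from 13.1 to 2888 that covers counting error only. The log2 fold change stayed large while the call was lost without young 1 (12.93, adjusted p = 0.7, against 0 young counts), without young 2 (5.26, adjusted p = 0.835) and without old 1 (5.96, adjusted p = 0.108). The call was also lost by DESeq2 (5.64, adjusted p = 0.0838) and with barcode sharing added to the fit as a term (5.50, adjusted p = 0.559), and was kept with the shared barcodes removed (5.70, adjusted p = 0.0189). The barcode term left the age difference to the shared-barcode set, where young 1 and young 2 stood at 12.4 and 0 CPM and old 2 at 394 CPM.

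The same difference was seen inside a single cluster, which held 89.1 to 100% of the FBs of young 1, young 2, old 1 and old 2. For these libraries it was thus nearly the same cells, and only old 3 and old 4, with 58 and 27 cells there, added a separate view. Cluster 10, led by Tnfaip6, Pi16, Cxcl1 and Mt2, held FBs of all 6 libraries, and Mmp3 stood there at 14.1 and 0 CPM in young 1 and young 2 and at 323, 348, 453 and 478 CPM in old 1 to old 4. A count was found in 1.22 and 0% of the young cells of that cluster and in 16.7, 10.1, 15.5 and 25.9% of the old ones. In the ECs of old 1 and old 3, 0.744 and 1.36% of cells had a count, and none of those of the other 4 libraries. Fos and Il6 are genes known to respond quickly to tissue handling. Fos stood at 3115 and 3010 CPM in the FBs of young 1 and young 2 and at 1682, 3795, 251 and 1319 CPM in old 1 to old 4, and Il6 at 558 and 287 CPM and at 185, 1380, 4.16 and 127 CPM. Young and old overlapped for both, as for Atf3, Cxcl1, Egr1, Fosb, Ier3, Jun and Ptgs2. Junb, an AP-1 gene, did not overlap, at 2718 and 2437 CPM in the young and 2277, 1976, 304 and 1429 CPM in the old FBs. The part of these genes in the result was not tested. Near-empty barcodes, of at most 100 UMIs, which hold free RNA, had 6.19 and 7.07 CPM of Mmp3 in the young and 45.3, 10.7, 119 and 57.5 CPM in the old libraries.

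In SMCs, Mmp3 had 0 counts in both young libraries, whose 3-count limits were 133 and 131 CPM, and stood at 110, 0, 140 and 95.9 CPM in old 1 to old 4. Old 2 had 10 SMCs and a limit of 321 CPM. Pooled, the old SMCs were at least 1.6-fold higher than 3 counts over the young group, and the gene did not pass (unadjusted p = 0.00684, adjusted p = 0.777 by edgeR). The ECs of old 1, old 3 and old 4 had 4.22, 3.92 and 0 CPM and the perivascular MΦs 0, 2.49 and 0.783 CPM, and the part of free RNA in the FB and SMC levels was not tested. Between types, Mmp3 was also called higher in SMCs (log2 difference 4.06 ± 0.30, adjusted p = 1.97e-16 by edgeR), where all its counts were from old libraries. It was called higher in myeloid cells too, but its 42 counts there were in 2 cells of old 3.

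**Figure D3:**
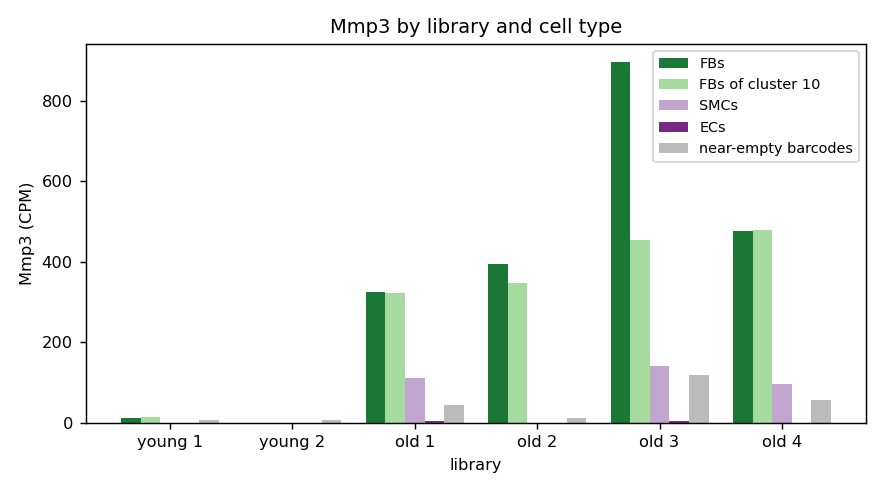
Mmp3 level in CPM in each library (horizontal axis) for all FBs, the FBs of cluster 10, SMCs, ECs and near-empty barcodes. The old FBs stand at 325 to 896 CPM and the young at 12.4 and 0 CPM, and the SMCs of old 1, old 3 and old 4 at 95.9 to 140 CPM, above the ECs of the same libraries.

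Mmp3 lies on chromosome 9 in a run of Mmp genes, and its start region carries TGAGTCA, a site bound by AP-1 factors, which are well known for their action on MMP promoters. The motif searched, TGANTCA, takes any middle base and is wider than the AP-1 sites TGAGTCA and TGACTCA. The sequences are shown because Mmp3 was the member called with age and Mmp12 and Mmp13, its neighbours, were the rare members found at high levels in cluster M11. Windows of 300 bases, from 250 before to 50 after a RefSeq transcript start (GRCm38.p6), were searched on both strands, and the motif reads the same on each. It was found in 13 of the 59 windows of members (22%), and in 7.81% of 32851 windows of all genes. Of the 12 windows of Mmp genes on chromosome 9, 8 held it, and none of 9 windows of Mmp genes elsewhere. The match began at -46 from the start of Mmp3, at -44 from a start of Mmp12 and at -35 for Mmp13. Another annotated start of Mmp12, and another of Mmp7, had no match in its window, and neither had Mmp8 and Mmp27. The matches of Mmp20, Adam20 and Adam25 read TGAATCA, which is outside the AP-1 sites. The motif was found as well at Mmp10, Mmp7, Mmp1a, Mmp1b and Mmp20, which had 16, 1, 9, 10 and 22 counts in all cells, so that it was shared by genes at very different levels. The 90 bases around the motif of Mmp3 (chr9:7445736-7445825, plus strand), Mmp12 (chr9:7347290-7347379, plus strand) and Mmp13 (chr9:7272439-7272528, plus strand) read as follows, 5′ to 3′, with the motif in capitals.
Mmp3: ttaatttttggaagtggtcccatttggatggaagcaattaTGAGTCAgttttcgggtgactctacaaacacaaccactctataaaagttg
Mmp12: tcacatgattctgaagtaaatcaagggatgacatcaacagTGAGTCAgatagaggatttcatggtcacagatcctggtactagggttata
Mmp13: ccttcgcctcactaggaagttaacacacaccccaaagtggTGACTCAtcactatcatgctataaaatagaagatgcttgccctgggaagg

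The old and young FB libraries did not overlap for 10 of the 30 tested members, 7 with all old libraries higher and 3 with all lower. Over all 6782 genes tested in FBs, 16.8% had all old libraries higher and 7.62% all lower. The filter, which the old libraries could meet alone, favoured higher old levels among members and all genes alike. Beside Mmp3, the higher ones were Adamts12, Adamts15, Adamtsl2, Adam10, Adam19 and Timp1, and the lower ones Mmp2, Adam9 and Adam15. Adamts12, a protease of cartilage matrix proteins, stood at 49.6 and 0 CPM in the young (4 counts) and 67.6, 113, 208 and 107 CPM in the old libraries (log2 fold change 1.72 ± 0.78, adjusted p = 0.764 by edgeR). In the near-empty barcodes its order was the reverse, with 107 and 59.3 CPM in the young and 42.7, 27.5, 13.9 and 4.7 CPM in the old libraries. Adamts15 and Adamtsl2 had 0 counts in the young FBs and 23.4 to 59.5 and 22.5 to 29.6 CPM in the old, with adjusted p of 0.713 and 0.725 by edgeR. Against 3 counts over the young group, the pooled old Adamts15 was at least 1.49-fold higher, whereas the limit left no direction for Adamtsl2. Most UMIs of the old pool were from old 3 and old 4. In single libraries, 0 counts allow up to 37.2 CPM in young 1 and 143 CPM in young 2. All old values of both genes lay below the limit of young 2, so their order by library was not resolved. Adam10 stood at 37.2 and 0 CPM in the young, from 3 counts, and 67.6 to 92.2 CPM in the old (adjusted p = 0.807), and Timp1 at 62.1 and 47.8 CPM, from 6 counts, and 78, 202, 102 and 91.5 CPM (1.01 ± 0.71, adjusted p = 0.823, both by edgeR). Adam19 had 2 young counts and stood at 54.2 ± 13.5 CPM in the old (SD, n = 4; 1.45 ± 0.91, adjusted p = 0.814 by edgeR). Young 2 had 0 counts of Adamts12, Adam10 and Adam19, which allows up to 143 CPM there. That limit is above most old values of these genes, so the order of young 2 and the old libraries was not resolved for them.

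Among the genes with lower old libraries, Mmp2 was measured best. It stood at 583 and 669 CPM in the young FBs (47 and 14 counts) and at 330, 315, 345 and 376 CPM in the old ones, with a log2 fold change of -0.79 ± 0.42 (adjusted p = 0.814 by edgeR) and a ratio of pooled CPM of 0.588 (95% counting interval 0.457 to 0.771). Within cluster 10, the young libraries stood at 634 and 669 CPM and the old at 323, 309, 235 and 565 CPM. Adam9, a membrane sheddase, stood at 186 and 239 CPM in the young and 98.8, 123, 115 and 105 CPM in the old FBs (-0.85 ± 0.48, adjusted p = 0.814), and Adam15 at 137 and 191 CPM and at 83.2, 73.9, 60.1 and 91.8 CPM (-0.97 ± 0.51, adjusted p = 0.814, both by edgeR). Without old 1, the log2 fold change in FBs was -0.73 for Mmp2, -0.75 for Adam9, -0.95 for Adam15, 1.99 for Adamts12, 1.67 for Adam10, 1.60 for Adam19 and 1.17 for Timp1. With barcode sharing as a term it was -0.74, -0.52, -0.85, 1.76, 1.71, 2.0 and 1.97 in the same order. Of these genes, Mmp2, Adam9, Adam15 and Timp1 could be fitted without old 3 and old 4, at -0.70, -0.67, -0.73 and 1.37. The barcode term left the age difference to old 2 against the young libraries, since these libraries formed the shared set. Each gene kept its direction, and none passed at an adjusted p of 0.05 by edgeR. The genes were picked because all old libraries lay on the same side of the young ones. Leaving libraries out could hardly turn such a direction, so the kept directions are no check of it. The Timp2 of FBs, given above by library, overlapped between the ages (-0.20 ± 0.43, adjusted p = 0.979 by edgeR).

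**Figure D4:**
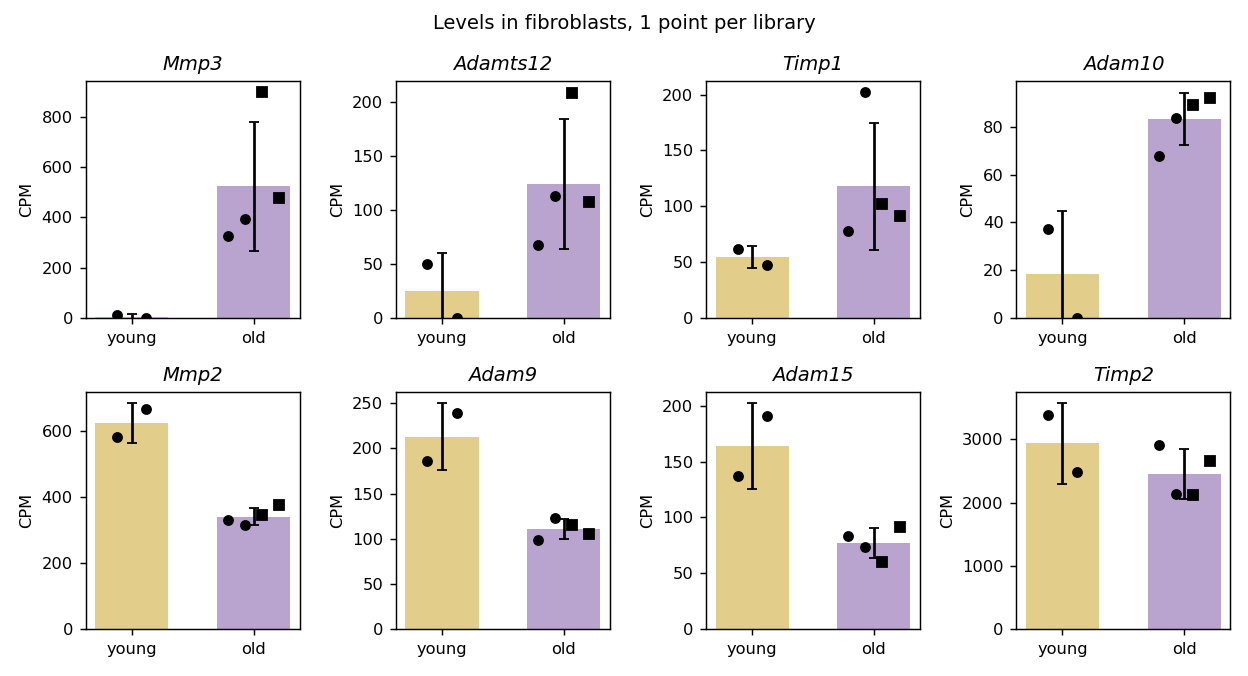
Levels of 8 genes in FBs in CPM, with 1 point per library (circles for the 4 shallower libraries, squares for old 3 and old 4); bars are group means and error bars the SD over 2 young and 4 old libraries. Mmp3, Adamts12, Timp1 and Adam10 have all old points above the young, Mmp2, Adam9 and Adam15 all below, and Timp2 overlaps.

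**Figure D5:**
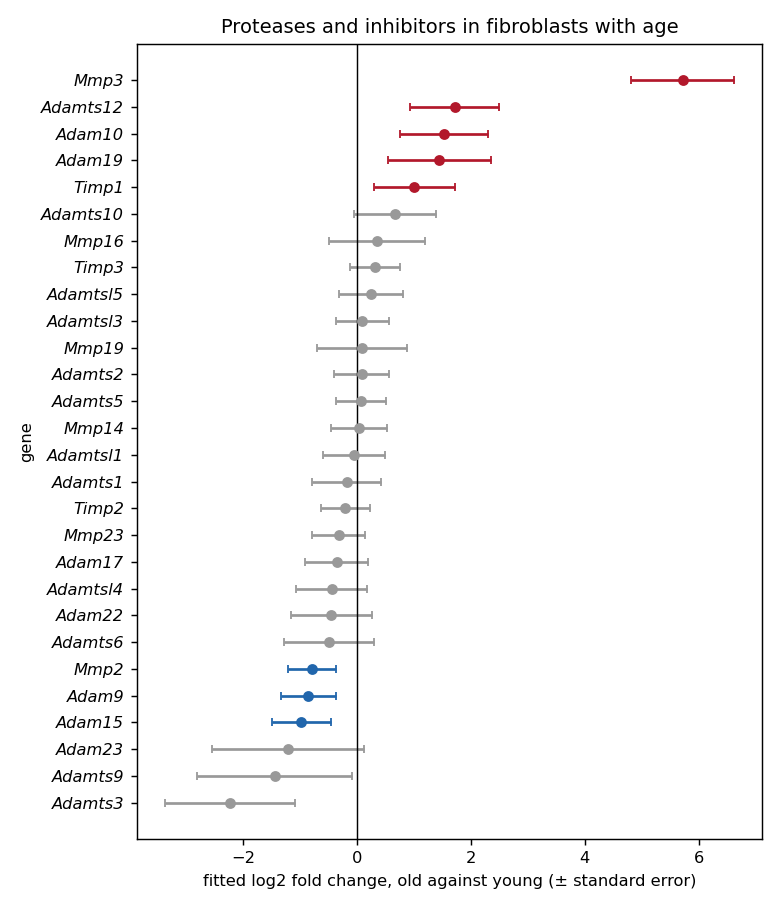
Fitted log2 fold change of old against young FBs with its standard error for the tested members that had a count in a young library; red and blue mark members whose old libraries were all higher or all lower, grey those that overlapped. Mmp3 stands alone at 5.72, the rest lie between -2.22 and 1.72.

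In ECs, 4 of the 12 tested members had all old libraries below the young ones and 0 had all above, where 7.92% and 12% of the 5870 genes did. Mmp2 was again among them, at 177 and 137 CPM in the young (10 and 6 counts) and 32.5, 42.6, 54.2 and 50.9 CPM in the old libraries (log2 fold change -1.79 ± 0.48, unadjusted p = 0.0022, adjusted p = 0.824 by edgeR), and the ratio of pooled CPM was 0.294 (95% counting interval 0.178 to 0.523). The others were Adam15, at 301 and 251 CPM against 114 to 215 CPM, Timp3, at 1609 and 1619 CPM against 1004 to 1517 CPM, and Adamts9, at 248 and 296 CPM against 46.4, 192, 232 and 61.2 CPM (-1.03 ± 0.65, adjusted p = 0.902 by edgeR). For Adamts9 in old 3, 593 of 651 counts came from cluster 20. Mmp2 and Adam15 were thus lower in every old library in FBs and in ECs, which are cells of the same mice. Without old 1, the log2 fold change in ECs was -1.56 for Mmp2, -0.57 for Adam15, -0.67 for Adamts9 and -0.49 for Timp3, and with barcode sharing as a term it was -1.72, -1.12, -0.33 and -0.24. Without old 3 and old 4 it was -1.87, -0.44, -1.19 and 0.017, so that Timp3 alone of these 4 genes lost its direction. These genes too were picked because all old libraries lay below the young ones, so the kept directions are no check. The barcode term again left the age difference to old 2 against the young libraries. None of these fits passed at an adjusted p of 0.05 by edgeR.

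The SMC comparison was limited by 25 and 33 young cells, in which a single count was worth 44.5 and 43.7 CPM. Timp4 was the 1 of 26 tested members whose libraries did not overlap, from 1 count in each young library (44.5 and 43.7 CPM) and 23.7, 0, 26 and 24.8 CPM in the old (-0.43 ± 1.18, adjusted p = 0.995 by edgeR), with a pooled ratio of 0.568 and a 95% counting interval from 0.157 to 4.7. Over all genes tested in SMCs, 9.16% had all old libraries higher and 8.02% all lower. In myeloid cells, with 2 libraries per group, Adam17 was the 1 of 6 members that did not overlap, at 142 and 140 CPM in the young and 127 and 94.1 CPM in the old (log2 fold change -0.32 ± 0.64). Of the 3127 genes tested in myeloid cells, 17.6% had all old libraries higher and 16.2% all lower. The myeloid groups also differed in their clusters. Cluster M1, led by H2-Eb1, H2-Ab1, H2-Aa and Cd74, held 100 and 94.7% of the myeloid cells of young 1 and young 2 and 65.3% of those of old 2. In old 3, 87.6% lay in cluster M6, led by Lyz2, Plac8, Chil3 and Ccr2.

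Adam2, a fertilin gene known from sperm, was found in ECs, at 495 CPM in young 1 and 248 CPM in old 1 but at 0 to 14.2 CPM in the other 4 libraries. In young 1 all 28 counts were in 1 cell, and in old 1 the 410 counts of cluster 4 were in 27 of 667 cells, so that few cells with many counts set the level. The files hold counts per gene, without read positions.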

How the data were processed

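The authors deposited raw UMI counts per gene and barcode, made per the labels with cutadapt and STARsolo against GRCm38.p6; versions are not given in the sources used here. Barcodes with at least 500 UMIs, 300 genes and at most 20% mitochondrial UMIs were kept, doublets were removed by scrublet score (its threshold, or the top 0.8% per 1000 cells where that marked under 0.5%), and cells were clustered with scanpy 1.11.5 without the member genes. Names came from fixed markers. Counts were summed per library and type, leaving out sums of under 10 cells, and fitted with edgeR 4.0.16 (TMM, robust quasi-likelihood, Benjamini-Hochberg over all genes; 5% of cells in at least 3 libraries). Scripts were tested on simulated data. Intervals and limits (95%; 3 counts for 0) cover counting error only. The labels tie each library to an age, and p-values measure the spread between libraries. Named genes were those called, the leading members per type, the non-overlapping members with the largest changes, those the study's text names, and a set with known roles; Adam2, Mmp8, Mmp12, Mmp13, Mmp17 and Adamts2 were singled out after their values were seen. The members and lists were chosen with earlier results of these data known. Alternatives covered normalization, filters, DESeq2 1.42.0, depth, clustering, doublets, shared barcodes and each library left out. Promoters (RefSeq, GRCm38.p6) were matched by symbol for 54 of 85 members.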

Additional observations from a re-analysis of the deposited data

Results flagged for a closer look

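Timp4 in the SMCs of old 2 stood at 0 CPM, apart from the other old libraries at 23.7, 26 and 24.8 CPM by a test for a single distant value. Old 2 had 10 SMCs with 9339 UMIs, in which 0 counts allow up to 321 CPM, so the gap was not detectable at this depth. Over the 25 groups looked at, chance alone flags about 1 in 20.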

How the results depend on the processing

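The number of members called between old and young FBs fell from 1 to 0 with DESeq2, with the filterByExpr filter, after thinning cells to 500 UMIs, with the libraries sharing barcodes as a covariate and without the 2 deepest libraries (chosen after seeing the data), and ran from 0 to 1 with each library left out; fewer members were tested after thinning (13) and without the deepest libraries (17). It was 0 in each such run in SMCs and ECs and 0 to 1 in myeloid cells, the 1 without old 2. Members higher by type after thinning, with 20 tested, were 15 in FBs, 13 in SMCs, 8 in mesothelial cells, 5 in perivascular MΦs, 1 in B cells, 1 in myeloid cells and 0 in T and NK cells. With no gene filter, and 78 tested, 7 were higher in B cells, 11 in myeloid cells and 7 in T and NK cells. Myeloid cells had 4 with DESeq2 and 4 with doublets kept. With a library left out the counts were 24 to 28 in FBs, 15 to 22 in SMCs, 12 to 15 in ECs, 13 to 16 in mesothelial cells, 8 to 11 in airway epithelial cells, 8 to 11 in perivascular MΦs, 5 to 7 in myeloid cells, 2 to 3 in B cells and 2 in T and NK cells. Fewer members were tested without old 1 or old 3 (33 each) and without old 4 (32), against 38 otherwise. The FB count of 24 was thus of 33 without old 3 and of 32 without old 4. Shares over all genes are not given for these settings, so the counts by setting are not read as gains or losses. The fold change turned for Timp4 in SMCs (0.16 with no filter), for Timp2 in FBs (0.15 with no filter, 0.02 without the deepest libraries, -0.56 to 0.27 with a library left out, 0.27 being without young 1) and for Mmp9 in myeloid cells (-0.46 with member genes in the clustering, -0.08 to 4.95 with a library left out, -0.08 being without old 2). Where not given by the setting itself, the cause was not tested. Of the values for single named genes, 582 kept direction and call, 16 lost the call and 6 turned. No paired analysis was possible because the labels give no replicate numbers shared between the ages. A fit of FBs with at least 1000 UMIs could not be made. Depth limits the young FBs and SMCs most, where 3 counts in FBs were worth 37.2 and 143 CPM.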
